A study of Mus musculus with 14 samples.

Results

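The genes described here are 10 members of 2 families of calcium-dependent proteins, chosen by name: 5 S100 genes (S100a1, S100a4, S100a6, S100a10 and S100a11) and 5 annexin genes (Anxa1, Anxa2, Anxa3, Anxa5 and Anxa6). Each symbol names 1 row of the 23174 in the deposited expression table. All 10 passed the filter on low values in every comparison.

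S100 proteins are small proteins with a pair of EF-hand loops. They form dimers, and calcium binding exposes a surface through which they hold partner proteins. S100a10 is the exception in the family, since its loops no longer bind calcium. Annexins bind phospholipid membranes when calcium rises and act in membrane repair, vesicle traffic and the link between membrane and actin. The families meet in shared complexes: a dimer of S100a10 joins a pair of Anxa2 molecules into a tetramer at the plasma membrane, and S100a11 binds Anxa1. The Anxa2 tetramer is known as a docking site for plasminogen and its activator at the cell surface.

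The study asked, per its title, whether the zinc finger factor Zfp281 holds back the passage of mouse embryonic stem cells (ESCs) to extraembryonic endoderm (XEN) stem cells, the stem cells of the lineage that lines the yolk sac. RNA was sequenced from 14 libraries. Of these, 12 form a course of 4 lines on the 129S1/SVImJ background, each at 3 stages: WT3, which is wild type, KO2.6 and KO3.34, both Zfp281-/-, and Rescue3.34, which is KO3.34 with Zfp281 put back. KO2.6 is named as in the sample titles, while its cell line field reads 2.26-/-. Undifferentiated ESCs grew without feeders in serum and leukemia inhibitory factor. Cells at cXENp1 (passage 1 of chemical induction) had been in XEN medium with 0.01 µM retinoic acid plus 10 ng/mL of activin A for 48 hours. Cells at cXENp3 (passage 3) had since grown on inactivated fibroblast feeders and then on gelatin. The wild-type XEN lines XENB1 (129S1 background) and XEN5 (129S1/SVImJ) were kept without feeders in medium conditioned by fibroblasts. Each line at each stage is 1 library, each knockout is 1 line, and what drives the restored Zfp281 is not given in the sources used here. WT3 and Rescue3.34 are called Zfp281-present lines below, and Rescue3.34 shares its clone of origin with KO3.34.

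Values are FPKM, fragments per transcript length and sequencing depth, so that levels can be compared between genes per length. The table holds no counts, so the depth behind each value is unknown. Between 14972 and 16831 genes were above 0 per library. Zfp281 itself had 25.1 to 38.6 FPKM in the course libraries of WT3 and Rescue3.34, 10.6 to 12.5 FPKM in the XEN lines and 0 to 3.96 FPKM in the knockout libraries. A set of 6 ESC markers (Pou5f1, Sox2, Nanog, Zfp42, Esrrb and Tdgf1) summed to between 2575 and 3207 FPKM in ESCs and to 0.159 and 13.8 FPKM in XEN5 and XENB1. A set of 8 XEN markers (Gata4, Gata6, Sox7, Sox17, Foxa2, Dab2, Pdgfra and Cubn) summed to 1026 and 1410 FPKM in the XEN lines, with all 8 above 1 FPKM.

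Several libraries stand apart on these markers. KO2.6 as ESCs had all 8 XEN markers at 1 FPKM or more and a sum of 48.4 FPKM, against 1.03 to 5.93 FPKM in the other ESC libraries. It is also the only ESC library whose description carries the prefix XH, as all later stages and the XEN lines do, while the other 3 ESC libraries carry JH. At cXENp1 the XEN markers summed to 483 FPKM in KO2.6, against 38.6 in KO3.34, 49.2 in WT3 and 44.7 in Rescue3.34. At cXENp3 the knockout and Zfp281-present lines were far apart on the XEN markers, which summed to 940.5 FPKM in KO2.6 and 1167 FPKM in KO3.34, while WT3 had 5.55 and Rescue3.34 13.5 FPKM. Their ESC markers summed to 3626 FPKM (WT3) and 2109 FPKM (Rescue3.34). Rescue3.34 at cXENp3 had the highest sum of 10 fibroblast markers of any library, 1287 FPKM, with Col1a1 at 509 FPKM and Col3a1 at 305 FPKM, against 36.2 FPKM in WT3. In the feeder-free XEN lines these markers summed to 562 and 648 FPKM, and at cXENp3 to 397 FPKM in KO2.6 and 305 FPKM in KO3.34. Col3a1 had 27.8 and 35.3 FPKM in XENB1 and XEN5, Dcn 5.37 and 6.36, and Lum 0.477 and 1.06. Rescue3.34 at cXENp3 had 27.9 FPKM of Dcn and 8.32 of Lum. Postn (23.3 FPKM) and Twist1 (5.24 FPKM) were lower there than in either XEN line. Whether feeder RNA is part of these values was not tested. In such bulk samples, more cells of a type and more RNA per cell cannot be told apart.

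**Figure D1:**
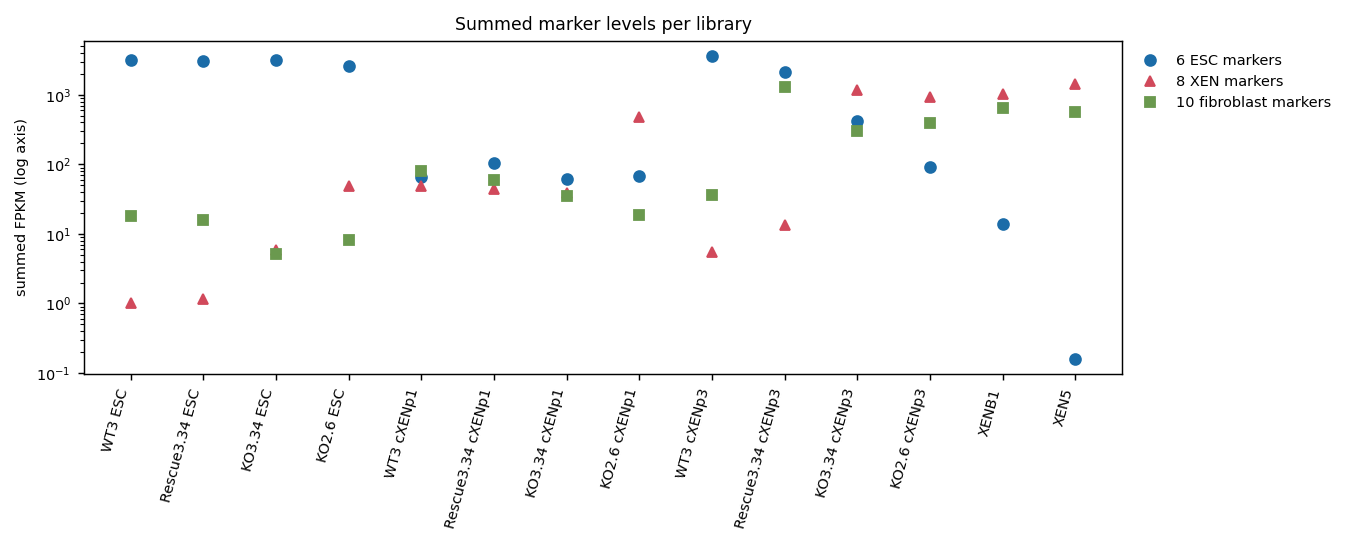
Summed FPKM (log axis) of 6 ESC markers, 8 XEN markers and 10 fibroblast markers in each of the 14 libraries, 1 point per library and marker set. Rescue3.34 at cXENp3 combined high ESC markers (2109 FPKM) with the highest fibroblast marker sum (1287 FPKM) and 13.5 FPKM of XEN markers.

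By their summed FPKM, both families were higher in the XEN lines than in any ESC library. The 5 S100 genes summed to 213, 229, 253 and 592 FPKM in the ESCs of WT3, Rescue3.34, KO3.34 and KO2.6. In XENB1 and XEN5 they summed to 1979 and 966 FPKM. The 5 annexins summed to between 52.2 and 88.1 FPKM in ESCs and to 943 and 597 FPKM in XENB1 and XEN5. At cXENp3 WT3 had an S100 sum of 275 FPKM, Rescue3.34 of 758, KO3.34 of 1340 and KO2.6 of 2003, and the annexin sum was 161, 517, 1033 and 1475 FPKM in the same order. The knockout lines thus stood at or above the XEN lines in annexin sum and WT3 stood nearest to ESCs. S100a11 or S100a10 was the most abundant S100 gene in every library (8 and 6 libraries), and Anxa2 led the annexins in 7 libraries.

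**Figure D2:**
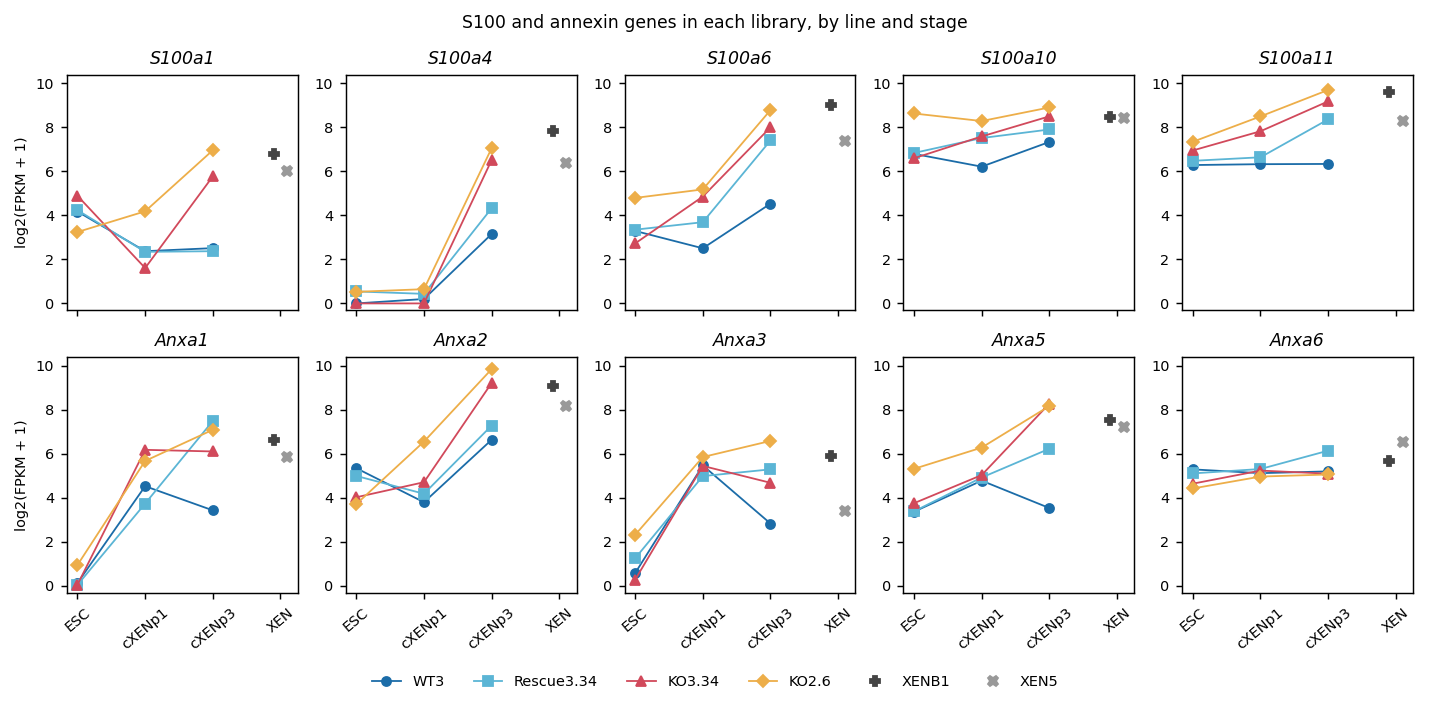
Level of each of the 10 genes as log2(FPKM + 1) (vertical axis) in every library, by stage (horizontal axis). Lines join the 3 libraries of 1 cell line, and the XEN lines are single points. S100a4 left the floor between cXENp1 and cXENp3, Anxa1 and Anxa3 between ESC and cXENp1, and Anxa6 moved least.

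The established XEN lines were compared with the 4 ESC libraries to place the endpoint. Of the 10 genes 9 rose (limma, adjusted p under 0.05), where 22.2% of the 12372 genes tested were called higher, and the median log2 change of the 10 was 3.48 against -0.02 over all genes tested. S100a4 and Anxa1 passed the filter only through the XEN libraries, so they had to differ, and of the other 8 genes 7 were called. In these 9 genes every XEN library lay above every ESC library, as was the case for 30% of all genes tested. S100a10 was the exception in both counts. Without XENB1 5 of 8 testable genes were called, and without XEN5 6 of 8. S100a4 and Anxa1 then had just 1 library at 1 FPKM or more and could not be tested, and the lone XEN library is assumed to vary like the others.

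S100a4, whose product binds non-muscle myosin and is known from motile and mesenchymal cells, showed the steepest contrast. It was listed at 0 in the ESCs of WT3 and KO3.34 and had 0.458 FPKM in Rescue3.34 and 0.440 FPKM in KO2.6. XENB1 had 226 FPKM and XEN5 82.7 FPKM. On the log2(FPKM + 1) scale, which understates changes of low values, it rose by 6.84 (SE 0.42, limma adjusted p 2.65e-05). Anxa1, which binds membranes and is also known as a secreted regulator of inflammation, had at most 0.0992 FPKM in the ESCs of WT3, Rescue3.34 and KO3.34 and 0.934 FPKM in KO2.6. It reached 97.4 FPKM in XENB1 and 57.2 FPKM in XEN5, a log2 rise of 5.94 (SE 0.37, limma adjusted p 2.65e-05). These genes stood below 1 FPKM in every ESC library, and with no filter their adjusted p was 0.000314 (S100a4) and 0.000312 (Anxa1).

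S100a6, known in proliferating and fibroblastic cells, rose by 4.66 (SE 0.62, limma adjusted p 0.000839), from 5.61 to 26.7 FPKM in ESCs to 513 FPKM in XENB1 and 167 FPKM in XEN5. Anxa2 rose by 4.12 (SE 0.49, limma adjusted p 0.000529), from 12.2 to 39.8 FPKM in ESCs to 550 FPKM in XENB1 and 291 FPKM in XEN5. Anxa5, the phosphatidylserine-binding annexin used as a probe of dying cells, rose by 3.42 (SE 0.53, limma adjusted p 0.0018). S100a11 and S100a1 had smaller rises of 2.17 (SE 0.42, limma adjusted p 0.00472) and 2.27 (SE 0.44, limma adjusted p 0.00481). S100a1 is best known as a regulator of calcium handling in muscle. Its XEN level was 109 FPKM in XENB1 and 64.5 FPKM in XEN5, against 8.48 to 28.7 FPKM in ESCs, and the call was lost without XENB1 (adjusted p 0.0591).

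The XEN lines disagreed most over Anxa3, with 59.0 FPKM in XENB1 and 9.52 FPKM in XEN5. Its rise was 3.54 (SE 0.77, limma adjusted p 0.00783), and was not called without XENB1 (adjusted p 0.0756). Anxa6, a long annexin with a duplicated core that is known from endosomes and muscle, rose by 1.24 (SE 0.34, limma adjusted p 0.0205), from 20.6 to 38.3 FPKM in ESCs to 50.2 FPKM in XENB1 and 92.2 FPKM in XEN5. Its call was lost without XEN5 (adjusted p 0.193) or without KO3.34 (adjusted p 0.0527). S100a10 differed by 1.24 (SE 0.53, limma adjusted p 0.0958) and was not called. It had 358 and 343 FPKM in XENB1 and XEN5 and 110.1, 113 and 95.7 FPKM in the ESCs of WT3, Rescue3.34 and KO3.34, but 395 FPKM in KO2.6. Without KO2.6 the difference was 1.71 (adjusted p 0.000252), and all 10 genes were called. The ESC libraries left then all carry the prefix JH and the XEN lines XH, so prefix and cell type cannot be told apart. With the description prefix as a term S100a10 stood at -0.17, and S100a11 (1.59) and Anxa3 (2.33) lost their calls. KO2.6 is the only ESC library with the prefix of the XEN lines, so that fit sets the XEN lines against its ESCs alone.

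Promoter sequences are shown for S100a4, S100a11 and Anxa2, each called higher in XEN against ESC, from the lowest, highest and middle ESC levels of the trio. RefSeq (GRCm38.p6) gave a window of 250 bases before to 50 after the annotated start for 7 of the 10 genes, and none is shown for S100a10, Anxa3 and Anxa6. Capitals mark matches, on either strand, to TATAAA (core promoter box), TGANTCA (motif of AP-1), GGAATG (motif of TEAD factors), AGATAA (motif of the zinc finger factors Gata4 and Gata6), GGGGAGGGG (a G-rich run) and GGGCGG (motif of Sp factors). The coordinates are chr3:90603520-90603819 on the plus strand for S100a4, chr3:93520246-93520545 on the plus strand for S100a11 and chr9:69453433-69453732 on the plus strand for Anxa2.
S100a4: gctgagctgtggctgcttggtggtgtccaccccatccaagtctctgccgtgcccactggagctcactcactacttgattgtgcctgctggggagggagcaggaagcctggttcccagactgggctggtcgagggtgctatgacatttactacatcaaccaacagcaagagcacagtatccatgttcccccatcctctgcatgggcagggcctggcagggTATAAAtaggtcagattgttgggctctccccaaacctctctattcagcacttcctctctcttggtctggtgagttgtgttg
S100a11: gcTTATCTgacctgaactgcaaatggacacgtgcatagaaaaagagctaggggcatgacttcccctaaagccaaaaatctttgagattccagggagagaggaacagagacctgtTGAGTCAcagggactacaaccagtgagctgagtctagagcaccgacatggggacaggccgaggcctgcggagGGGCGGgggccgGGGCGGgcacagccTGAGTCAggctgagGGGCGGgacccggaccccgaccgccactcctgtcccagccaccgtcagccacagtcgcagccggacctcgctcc
Anxa2: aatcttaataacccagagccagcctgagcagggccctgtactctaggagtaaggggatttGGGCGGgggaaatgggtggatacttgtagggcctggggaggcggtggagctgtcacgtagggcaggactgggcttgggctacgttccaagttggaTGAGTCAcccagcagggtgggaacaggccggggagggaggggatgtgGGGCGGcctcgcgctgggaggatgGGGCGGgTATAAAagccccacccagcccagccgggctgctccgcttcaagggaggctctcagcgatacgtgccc

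TATAAA occurred 31 bases before the annotated start of S100a4, 17 before that of Anxa2 and 32 before that of Anxa1, thus in 3 of 7 windows against 13.6% of 32851 RefSeq windows of the same length. TGANTCA occurred at 136 and 38 bases before the start of S100a11 and at 95 before that of Anxa2, and 7.81% of all windows hold it. GGGCGG occurred in S100a11 and Anxa2, at 3 positions each, against 35.7% of all windows. AGATAA was found in S100a11 alone of the 7 (11.2% of all windows) and GGAATG in Anxa1 alone (14.7%), while GGGGAGGGG (6.37%) was in none of the 7. Such matches describe these letters only. The windows of S100a1, S100a6 and Anxa5 held none of the 6 motifs.

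All 5 S100 genes lie on chromosome 3, in 2 clusters. On mm9, the build named in the submitters' processing notes, S100a1 lies at 90314956 to 90318252 (XLOC_013332), S100a4 at 90407692 to 90409967 (XLOC_012787) and S100a6 at 90416816 to 90418336 (XLOC_012789). S100a11 lies at 93324418 to 93330210 (XLOC_012819) and S100a10 at 93359039 to 93368567 (XLOC_012820). Within 200 kb of these 5 genes the table lists 9 more S100 genes, of which 3 could be tested in XEN against ESC and 3 were called higher (S100a13, S100a16 and S100a8, the last admitted by the filter only through its XEN libraries). The same windows hold 14 genes of other families, of which 7 could be tested and 1, Slc27a3, was called higher (log2 change 1.29, limma adjusted p 0.0399). Of all 12372 genes tested 22.2% were called higher. In knockout against Zfp281-present lines at cXENp3, 2 of the 9 S100 genes could be tested and 1 was called higher. Of 8 tested genes of other families 1 was called higher and 1 lower, against 22.9% and 19% of all genes tested. The loci of S100a1 and S100a13 lie 104 bases apart. The sources used here do not say whether strand was used in counting, so reads near that boundary cannot be assigned with certainty. S100a13 had a log2 change of 2.31 (SE 0.42, limma adjusted p 0.00362), close to that of S100a1.

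The annexins are scattered. On mm9, Anxa1 lies at chromosome 19, 20447924 to 20465161 (XLOC_010380), Anxa2 at chromosome 9, 69301490 to 69339592 (XLOC_021150), and Anxa3 at chromosome 5, 97222404 to 97274987 (XLOC_015328). Anxa5 lies at chromosome 3, 36347846 to 36374809 (XLOC_013148), and Anxa6 at chromosome 11, 54792464 to 54846973 (XLOC_003395). The microRNA Mir3109 is listed at the locus of Anxa2, and 1810062G17Rik lies 49 bases from Anxa5. How reads at these places were assigned between the rows is not given in the sources used here.

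The first change, over the 48 hours of induction, was tested between cXENp1 and ESC with line as a block. Anxa1 and Anxa3 rose and the other 8 genes were not called, where 14.7% of 13191 genes were called higher. The median log2 change of the 10 genes was 0.40 against 0.00 over all genes tested. This comparison and that of XEN with ESC share the ESC libraries.

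At cXENp1, Anxa1 stood at 22.2 FPKM for WT3, 12.4 for Rescue3.34, 71.8 for KO3.34 and 50.3 for KO2.6. All 4 lines were well above their ESCs, and the log2 rise was 4.74 (SE 0.68, limma adjusted p 0.00171). Anxa3 had 43.5, 30.8, 42.8 and 57.0 FPKM in the same order, after 0.499, 1.39, 0.218 and 4.0 FPKM in ESCs. It rose by 4.33 (SE 0.48, limma adjusted p 0.00055), and its cXENp1 levels spanned a narrow range in the 4 lines. With the prefix as a term Anxa1 was no longer called (4.94, adjusted p 0.0721). All libraries of KO2.6 carry the prefix XH. In that line 9 of the 10 genes were higher at cXENp1 than in ESCs, by a median log2 value of 0.95. All 10 were higher at cXENp3, by a median of 3.85. This is 1 line with 1 library a stage, so it carries no test, and the share of all genes that were higher in KO2.6 is not given.

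S100a4 had not moved at cXENp1: it was listed at 0 in KO3.34 and had 0.149, 0.351 and 0.566 FPKM in WT3, Rescue3.34 and KO2.6 (log2 change 0.05, SE 0.60, limma adjusted p 0.96). Anxa2 went in different directions by line, from 39.8 to 13 FPKM in WT3 and from 31.0 to 17.2 in Rescue3.34, but from 15.3 to 25.3 in KO3.34 and from 12.2 to 93.3 in KO2.6 (log2 change 0.29, SE 0.72, limma adjusted p 0.786). S100a1 was at 4.18, 4.08 and 2.05 FPKM in WT3, Rescue3.34 and KO3.34, below their ESC values of 17.1, 17.9 and 28.7 FPKM, and at 17.2 FPKM in KO2.6, above its 8.48. Over the 4 lines its change was -1.51 (SE 0.87, limma adjusted p 0.214). Without KO2.6 it was -2.33 (adjusted p 0.0471).

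At cXENp3 the genes were compared with the ESCs of the same lines. Of the 10 genes 7 rose, where 5.34% of 13191 genes were called higher, and the median log2 change was 3.12 against -0.01 over all genes tested. They were Anxa1 (5.74, SE 0.68, limma adjusted p 0.00722), S100a4 (4.99, SE 0.60, limma adjusted p 0.00722), Anxa3, Anxa2, S100a6, Anxa5 and S100a11 (1.63, SE 0.35, limma adjusted p 0.0291). S100a10 (0.95, SE 0.29, limma adjusted p 0.0623), Anxa6 (0.51, SE 0.21, limma adjusted p 0.126) and S100a1 (0.27, SE 0.87, limma adjusted p 0.848) were not called. S100a4 passed the filter in the course only through its cXENp3 libraries, and with no filter its adjusted p was 0.023. In each of the 7 genes all 4 lines were higher at cXENp3 than as ESCs, as they were in S100a10, which was not called. In WT3 the rise was small for S100a11 (77.1 to 79.9 FPKM) and Anxa5 (9.36 to 10.6 FPKM). The share of all genes that were higher in all 4 lines is not given. Leaving out a line changed the count of called genes, which was 4 without KO2.6 and 0 when either KO3.34 or Rescue3.34 was left out. The count was also 0 with the prefix as a term, and 5 without the replicate block (line), where S100a11 (adjusted p 0.125) and Anxa5 (adjusted p 0.0817) were not called.

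Between the induced stages, whose libraries all carry the prefix XH, 3 of the 10 genes rose toward cXENp3: S100a4 (4.94, SE 0.60, limma adjusted p 0.0023), Anxa2 (3.43, SE 0.72, limma adjusted p 0.0217) and S100a6 (3.12, SE 0.53, limma adjusted p 0.0089). Of all 13191 genes 2.47% were called higher. With no filter the adjusted p of S100a4 was 0.0067. S100a6 went from 4.67 to 22.1 FPKM in WT3, from 11.9 to 169 in Rescue3.34, from 27.9 to 256 in KO3.34 and from 35.3 to 440 in KO2.6. All 4 lines moved up. Anxa1 (1.00, SE 0.68, limma adjusted p 0.434) and Anxa3 (-0.59, SE 0.48, limma adjusted p 0.517), the pair that had risen by cXENp1, were not called here. Of the 10 genes 1, S100a4, was still called without KO3.34 or without Rescue3.34, and 5 were called without WT3.

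**Figure D3:**
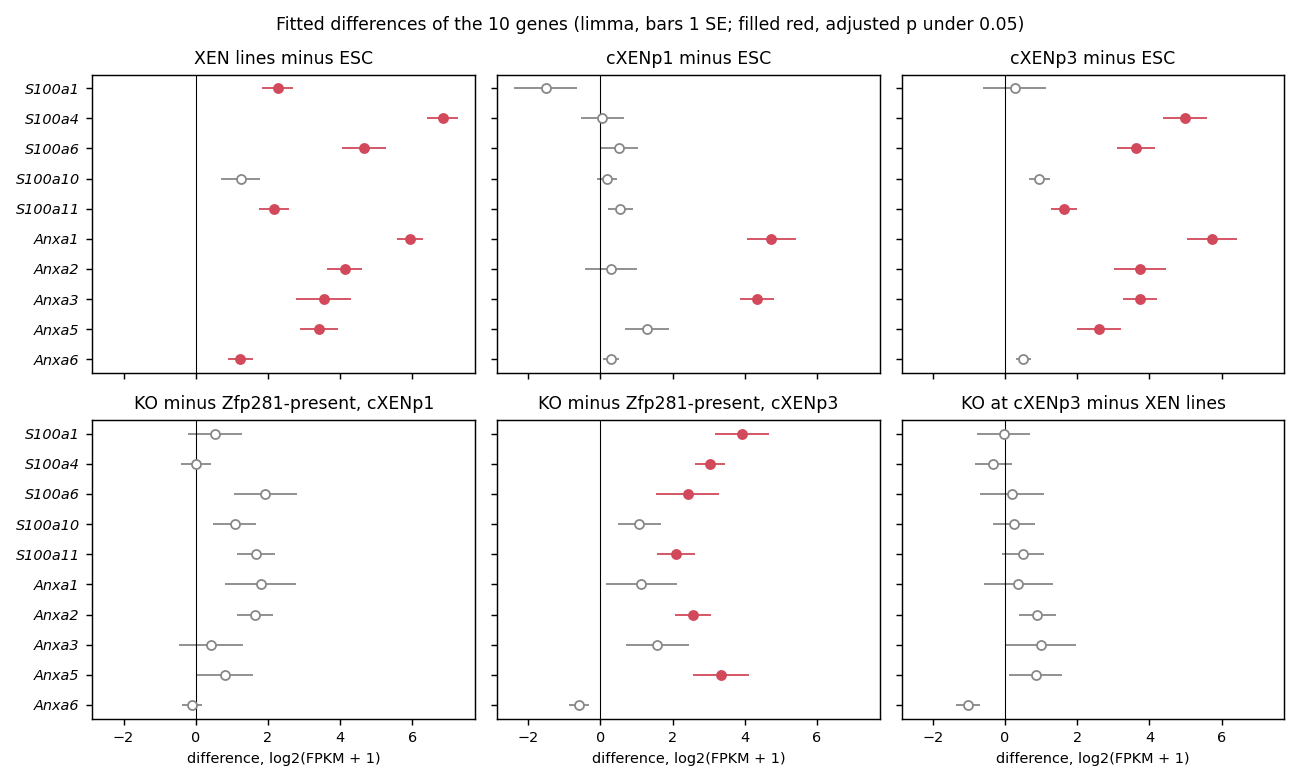
Fitted difference of each gene on the log2(FPKM + 1) scale (horizontal axis) in 6 comparisons, with bars of 1 SE. Filled red points passed an adjusted p of 0.05 in limma: 9 genes in XEN against ESC, 2 at cXENp1 and 7 at cXENp3 against ESC, 0 and 6 in knockout against Zfp281-present lines at cXENp1 and cXENp3, and 0 in knockout cXENp3 against XEN lines.

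The knockout lines were then compared with the Zfp281-present lines within each stage. In ESCs 0 of the 10 genes were called by limma, and 1.97% of 13191 genes were called in either direction. At an unadjusted p under 0.05 there were 2 of the 10 genes, and 2762 of all 13191. At cXENp1 0 of 10 were called, against 0.485% of all genes, and 2 of the 10 had an unadjusted p under 0.05, against 1486 of all 13191. The lowest adjusted p was that of Anxa2 in either stage: in ESCs it was lower in the knockout lines (15.3 and 12.2 against 39.8 and 31.0 FPKM, log2 difference -1.30, SE 0.50, limma adjusted p 0.178), and at cXENp1 it was higher (25.3 and 93.3 against 13 and 17.2 FPKM, log2 difference 1.64, SE 0.50, limma adjusted p 0.223). The groups did not overlap in either case, as for 27.9% of all genes tested in the same direction in ESCs and 27.2% at cXENp1. Without KO3.34 these Anxa2 differences were called, at -1.46 in ESCs (adjusted p 0.0328) and 2.56 at cXENp1 (adjusted p 0.0147), each resting on KO2.6 alone.

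At cXENp1 9 of the 10 genes had a higher mean in the knockout lines, and the share of all genes that did is not given. The median log2 difference of the 10 was 0.94 against 0.04 over all genes tested. S100a6 reached 35.3 FPKM in KO2.6 and 27.9 FPKM in KO3.34, where WT3 had 4.67 and Rescue3.34 11.9 FPKM (log2 difference 1.92, SE 0.87, limma adjusted p 0.453). Anxa1 differed by 1.79 (SE 1.00, limma adjusted p 0.563). S100a11 had 225 and 360.4 FPKM in the knockout lines against 79.3 and 98.7 FPKM. In 6 of the 10 genes (S100a6, S100a10, S100a11, Anxa1, Anxa2 and Anxa5) both knockout libraries were above both others, as in 27.2% of all genes tested. None of these 6 differences passed the test. The XEN markers summed to 483 FPKM in KO2.6 and 38.6 FPKM in KO3.34 at this stage, and their part was not tested.

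At cXENp3, 6 of the 10 genes were higher in the knockout lines and none was called lower, where 22.9% of 13191 genes were called higher and 19% lower. The median log2 difference of the 10 was 2.26 against 0.01 over all genes tested. The XEN and ESC markers moved with these differences in the libraries given above (all 8 XEN markers at 1 FPKM or more in both knockout lines, 3 of 8 in WT3 and in Rescue3.34), and their part in them was not tested. S100a1 differed most: KO2.6 had 123 and KO3.34 53.6 FPKM, WT3 had 4.70 and Rescue3.34 4.18 FPKM (log2 difference 3.92, SE 0.76, limma adjusted p 0.00327). Anxa5 had 310.2 and 288 FPKM in the knockout lines against 10.6 FPKM (WT3) and 74.3 FPKM for Rescue3.34 (3.34, SE 0.77, limma adjusted p 0.00743). In both genes every knockout library lay far above either Zfp281-present library.

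S100a4 reached 132 FPKM in KO2.6 and 90.3 FPKM in KO3.34, where WT3 had 7.89 and Rescue3.34 19.0 FPKM (3.04, SE 0.42, limma adjusted p 0.000697). Anxa2 had 597 and 923 FPKM against 98.9 and 155 FPKM (2.57, SE 0.50, limma adjusted p 0.00347). S100a11 had 579 and 830.2 FPKM against 79.9 and 328 FPKM (2.09, SE 0.53, limma adjusted p 0.0114). S100a6 had 256 and 440 FPKM against 22.1 and 169 FPKM (2.42, SE 0.87, limma adjusted p 0.0475), just inside the threshold. It fell outside with a pseudocount of 0.1 (adjusted p 0.0512), with no filter (adjusted p 0.0915), after quantile normalization (adjusted p 0.0584) and without the trend (adjusted p 0.0506).

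The other 4 genes were not called at cXENp3. S100a10 had 361 and 478 FPKM in the knockout lines against 161 and 238 FPKM (log2 difference 1.08, SE 0.60, limma adjusted p 0.175), with no overlap. Anxa3 differed by 1.57 (SE 0.88, limma adjusted p 0.174), with 24.8 and 95.3 FPKM against 6.14 and 38.3 FPKM. Anxa6 had 33.4 and 32.5 FPKM against 35.9 and 69.9 FPKM (-0.59, SE 0.28, limma adjusted p 0.111). Anxa1 stood at 136 FPKM for KO2.6, 68.1 for KO3.34, 9.82 for WT3 and 179.6 for Rescue3.34, the highest value of the gene in the series (1.14, SE 1.00, limma adjusted p 0.385). In all, 7 of the 10 genes had both knockout libraries above both Zfp281-present libraries, as did 37.2% of all genes tested.

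The Zfp281-present lines differed from each other at cXENp3. Rescue3.34 was above WT3 in 9 of the 10 genes, by a median ratio of FPKM of 3.26. The share of all genes in which Rescue3.34 was above WT3 is not given. The ratio was 18.3 for Anxa1, 7.62 for S100a6, 6.98 for Anxa5, 6.24 for Anxa3 and 4.10 for S100a11, and 0.888 for S100a1. With 1 library each there is no test of this. Fibroblast markers moved with it (1287 against 36.2 FPKM summed), and their part in these values was not tested. Without Rescue3.34, Anxa1 was called higher in the knockout lines (3.17, adjusted p 0.0126) and 7 of the 10 genes were called. Without WT3, when Rescue3.34 alone stood for the Zfp281-present lines, Anxa1 stood at -0.89 (adjusted p 0.317) and S100a4 was the 1 gene still called. S100a1 then differed by 3.99 and was not called (adjusted p 0.0686).

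Whether the change from cXENp1 to cXENp3 differed between knockout and Zfp281-present lines was tested as an interaction. It was called for 1 of the 10 genes, S100a4 (3.04, SE 0.59, limma adjusted p 0.016), where 7.19% of 13191 genes were called higher. S100a4 changed on the log2(FPKM + 1) scale by 2.95 in WT3, 3.89 in Rescue3.34, 6.41 in KO2.6 and 6.51 in KO3.34. Hence it was higher at cXENp3 in all 4 lines, and by more in the knockout lines. The call was lost with a pseudocount of 0.1 (3.52, adjusted p 0.152), without WT3 (adjusted p 0.247) and without Rescue3.34 (adjusted p 0.0592). S100a1 had the largest interaction, 3.39 (SE 1.07, limma adjusted p 0.0656), which was not called. It went from 2.05 to 53.6 FPKM in KO3.34 and from 17.2 to 123 FPKM in KO2.6, while WT3 went from 4.18 to 4.70 FPKM and Rescue3.34 from 4.08 to 4.18 FPKM. With line as a replicate block, a fit added after the data were seen, it was not called (adjusted p 0.0781) and S100a4 was (adjusted p 0.00648). S100a1 was called without KO3.34 (2.69, adjusted p 0.00713) and without KO2.6 (4.08, adjusted p 0.00339). Anxa5 (2.53, SE 1.09, limma adjusted p 0.138) and Anxa1 (-0.66, SE 1.41, limma adjusted p 0.778) were not called.

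The knockout lines at cXENp3 were set beside the established XEN lines. By limma 0 of the 10 genes were called, and of 13386 genes 4.12% were called in either direction. An unadjusted p under 0.05 was found for 1 of the 10, Anxa6, and for 2740 of all 13386. Anxa6 was at 32.5 FPKM for KO2.6 and 33.4 for KO3.34, and at 50.2 and 92.2 FPKM in XENB1 and XEN5 (log2 difference -1.03, SE 0.32, limma adjusted p 0.108). It was the only gene of the 10 in which both knockout libraries stood below both XEN lines, as did 21.4% of all genes tested. Both knockout libraries stood above both XEN lines in Anxa2 (597 and 923 against 550 and 291 FPKM, log2 difference 0.89, SE 0.51, limma adjusted p 0.364), in Anxa5 (310.2 and 288 against 186 and 146 FPKM) and in S100a10 (361 and 478 against 358 and 343 FPKM), thus in 3 of 10 genes against 28.3% of all genes tested. A p above the threshold with 2 libraries a group does not show that the levels are alike.

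The order of the 7 groups (knockout or Zfp281-present at 3 stages, and XEN) was taken from their mean FPKM. For 8 of the 10 genes the knockout lines at cXENp3 came first, and for S100a4 and Anxa6 the XEN lines did. In S100a1 the lead was small, with a mean of 88.5 against 86.7 FPKM in the XEN lines. The share of all genes led by either group is not given. In S100a1, S100a4, S100a6, S100a11, Anxa1, Anxa3 and Anxa6 the libraries of the first 2 groups in that order overlapped. In S100a10, Anxa2 and Anxa5 they did not. In Anxa6, 5 of the 6 neighbouring pairs of groups overlapped, as in S100a1, S100a6, S100a11 and Anxa3, and the exception was the knockout ESCs, at 20.6 and 24.1 FPKM, below all others.

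The balance between S100a10 and its partner Anxa2 differed by stage and line. The ratio of S100a10 to Anxa2 FPKM in ESCs was 2.77 for WT3, 3.66 for Rescue3.34, 6.24 for KO3.34 and 32.5 for KO2.6. At cXENp1 it was 5.65, 10.5, 7.58 and 3.33 in the same lines. At cXENp3 it was 1.62 for WT3 and 1.54 for Rescue3.34, but 0.517 for KO2.6 and 0.605 for KO3.34. XENB1 had 0.651 and XEN5 1.18. S100a10 messages thus outnumbered Anxa2 per length in all 8 ESC and cXENp1 libraries, and Anxa2 outnumbered S100a10 in 3 libraries, the knockout lines at cXENp3 and XENB1. These ratios carry no test.

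**Figure D4:**
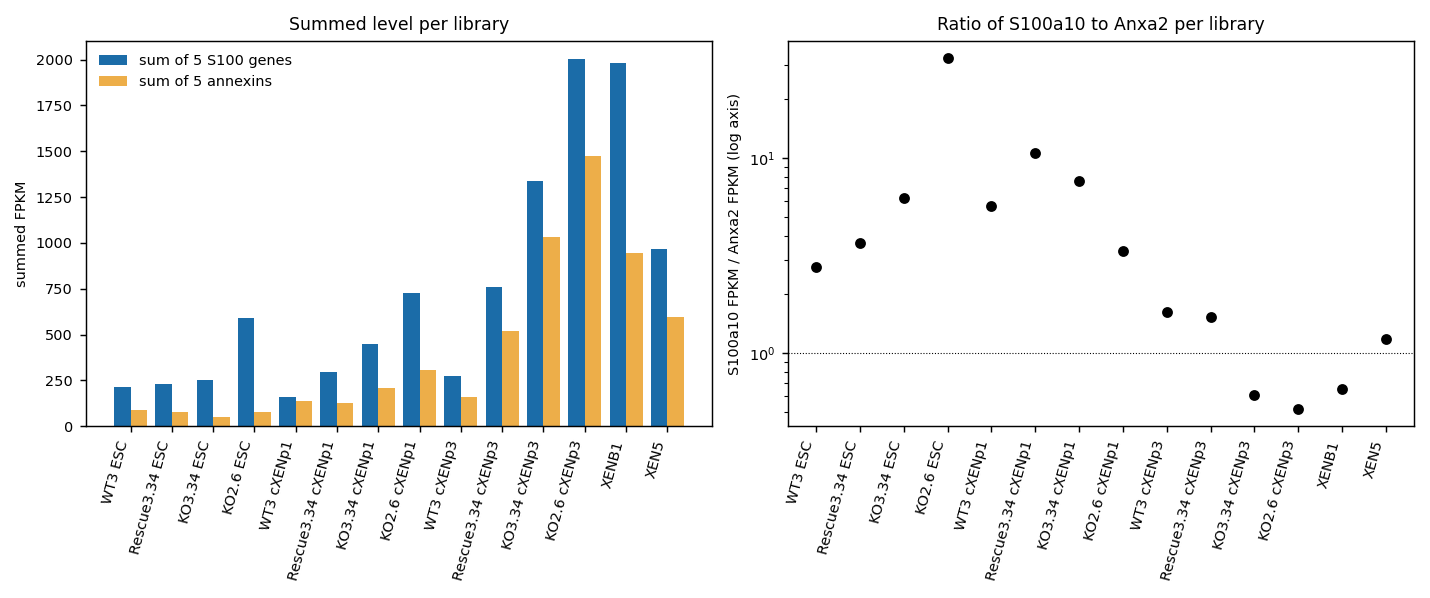
Left, summed FPKM of the 5 S100 genes and the 5 annexins in each library (bars from 0). Right, ratio of S100a10 to Anxa2 FPKM in each library (log axis, dotted line at 1). The ratio ran from 32.5 in KO2.6 ESCs to 0.517 in the same line at cXENp3.

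Over the 14 libraries the 10 genes were related to unequal degrees. Pearson's r of log2(FPKM + 1) had a median of 0.679 over the 45 pairs, with 0.939 for S100a4 with Anxa2, 0.934 for S100a11 with Anxa5 and 0.931 for the neighbours S100a4 and S100a6. It was lowest for S100a1 with Anxa3, at 0.0451. Anxa6 had the lowest median with the other 9 genes, 0.331. The libraries share lines and stages, so these values are a description. Among the 13376 genes compared, those most like each member over the 14 libraries were Fbln2 (r 0.987) and Cav1 (0.984) for S100a4, Lgals9 (0.961) for Anxa2, and Prkcdbp (0.975) and Cdkn2a (0.963) for Anxa1. They were Itpripl2 (0.973) and Tinagl1 (0.973) for Anxa5, Gm14005 (0.973) and Fam20a (0.956) for S100a6, Tmem161a (0.965) and Gna11 (0.957) for S100a1, and Cdkn2b (0.959) and Wls (0.948) for Anxa3. S100a11 was most like Runx1 (0.948) and Mgll (0.944), S100a10 most like 5330426P16Rik (0.940) and Bcl10 (0.933), and Anxa6 most like Amer1 (0.850) and S100a8 (0.838).

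Of 11 other S100 genes 4 passed the filter in XEN against ESC, S100g and S100a8 only through the XEN libraries. The remaining 2, S100a13 and S100a16, were both called higher, where 22.2% of all 12372 genes tested were called higher. S100g, an intestinal and placental calcium buffer, had 26.1 FPKM in XENB1 and 29.4 FPKM in XEN5, 7.65 FPKM in the ESCs of KO2.6 and was listed at 0 in the other ESCs. S100a16 rose by 1.38 (SE 0.36, limma adjusted p 0.0161). S100a8 had 1.27 FPKM in XENB1 and 6.54 FPKM in XEN5, and all 4 ESC libraries list it at 0. S100a9, its usual partner in neutrophils, was listed at 0 in all 14 libraries. In knockout against Zfp281-present lines at cXENp3, 3 of the 11 could be tested and 2 were called higher. Of all 13191 genes tested 22.9% were called higher. The 2 were S100a13 (4.02, SE 0.56, limma adjusted p 0.000759) and S100g, at 11 FPKM for KO2.6 and 6.15 for KO3.34, with WT3 and Rescue3.34 listed at 0.

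Of 7 other annexins 4 could be tested in XEN against ESC, where 22.2% of all genes tested were called higher. Anxa4 rose by 1.72 (SE 0.51, limma adjusted p 0.0284) and Anxa11 fell by 1.97 on the log2 scale (SE 0.32, limma adjusted p 0.00229). At cXENp3, 5 could be tested, Anxa13 only through the knockout libraries, and of the other 4 genes 2 were higher in the knockout lines. Of all genes tested 22.9% were called higher there. Anxa4 differed by 2.1 (SE 0.29, limma adjusted p 0.000706) and Anxa7 by 1.63 (SE 0.35, limma adjusted p 0.00518). Anxa13 was above 0 in 2 course libraries, with 2.31 FPKM for KO2.6 and 2.82 for KO3.34, both at cXENp3. Anxa4 was also called in knockout ESCs (1.38, SE 0.29, limma adjusted p 0.0468), with 16.2 and 31.8 FPKM against 8.26 and 8.02 FPKM.

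Partners of these proteins were read from a list of 18 genes, of which 16 could be tested in XEN against ESC. In that comparison 11 were called higher and 1 lower, where 5 of the 16, Plat and Plau among them, passed the filter only through the XEN libraries. Of the other 11 genes 7 were called higher, where 22.2% of all 12372 genes tested were called higher. Among genes of plasminogen activation Plaur, the receptor of urokinase, rose by 2.82 (SE 0.72, limma adjusted p 0.0158). Plat, the tissue activator (6.53, SE 0.28), and Plau, urokinase (2.81, SE 0.36), were also higher. Both passed the filter only through the XEN libraries, so they had to differ. The 1 lower gene was Sugt1, whose product binds S100a6, at -1.17 (SE 0.40, limma adjusted p 0.0483).

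In knockout against Zfp281-present lines at cXENp3, 9 of 15 partners were called higher and 1 lower, with a median of 1.32 against 0.01 over all genes. Of all 13191 genes tested, 22.9% were called higher and 19% lower. Plat reached 142 FPKM in KO2.6 and 143 FPKM in KO3.34, where WT3 had 1.62 and Rescue3.34 22.8 FPKM (4.18, SE 0.83, limma adjusted p 0.00382). Plaur had 131 and 213 FPKM against 7.40 and 12.8 FPKM (3.97, SE 0.85, limma adjusted p 0.00535). Ahnak, the giant scaffold bound by the S100a10 and Anxa2 tetramer, was also higher (2.42, SE 0.47, limma adjusted p 0.00353). Plau was not called (0.75, SE 0.77, limma adjusted p 0.46). It had 13.6 FPKM in KO2.6 and 7.32 FPKM in KO3.34, where WT3 had 1.47 and Rescue3.34 16.4 FPKM. Cacybp, which binds S100a6, was lower (-1.25, SE 0.36, limma adjusted p 0.0208). The formyl peptide receptors Fpr1 and Fpr2, through which secreted Anxa1 acts, had at most 0.181 and 0.156 FPKM in any library.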

How the data were processed

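RNA-seq of 14 mouse libraries was analysed from 1 deposited table of FPKM values. The submitters' processing notes name STAR 2.5.3, Cufflinks 2.1.1 and the mm9 build, with no role or order; that the authors deposited FPKM is read from the table's form and these tools. Of 23174 rows, 259 share a symbol with another row, none of them a member. Starts were moved to count from 1.

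Values were tested as log2(FPKM + 1) with limma 3.58.1 (R 4.3.3; tables with Python 3.11.15 and pandas 2.3.3): linear fits, moderated with a mean trend, over genes with at least 2 fitted libraries at 1 FPKM or more, with Benjamini-Hochberg adjustment over all genes tested and calls at an adjusted p under 0.05. XEN against ESC used 6 libraries. Stages were compared in the 12 course libraries with line as a block, since the stages come from the same lines; same-line deviations from stage means correlated at 0.0337 to 0.397. Knockout contrasts and the interaction were fitted over 6 groups of 2 libraries, and knockout cXENp3 against XEN over 7. Each group holds 2 different lines, and the spread behind a p-value is that within groups, pooled over all groups and moderated. It is thus not the spread of the 2 groups compared alone. The 4 course lines recur at the 3 stages, and these main fits hold no line term. Rescue3.34 derives from a knockout line. The scripts were tested on simulated data.

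All 10 members are named. Of each other list, up to 4 called genes of largest change in the XEN and cXENp3 knockout comparisons are named, and 2 genes most like each member. 1 gene that this rule picks is not reported here. Anxa4 in ESCs, Cacybp, Sugt1, S100a9, Fpr1, Fpr2, Slc27a3 and the Col genes were named after their values were seen. The members and lists were chosen with earlier results of these data known. Alternatives were the pseudocount, filters, quantile normalization, no trend, no line block, the description prefix as a term, and leaving out each line. A line block in the interaction was chosen after seeing the data.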

Additional observations from a re-analysis of the deposited data

Results flagged for a closer look

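Within each stage, the 4 lines were searched for a library whose gap to the nearest other, on the log2(FPKM + 1) scale, filled an unusually large share of the range (Dixon's 95% critical value). Of 30 gene and stage groups, 4 were picked out, where chance picks out about 1 in 20. In ESCs, KO2.6 stood above the other lines in S100a10, at 395 FPKM with a gap of 0.882 of the range, and in Anxa1, at 0.934 FPKM with a gap of 0.903. The same ESC library had 48.4 FPKM of summed XEN markers, and their part in these values was not tested. At cXENp1, KO2.6 stood apart in Anxa5, at 77.0 FPKM with a gap of 0.832. That library had 483 FPKM of summed XEN markers, whose part was not tested. At cXENp3, Rescue3.34 stood apart in Anxa6, at 69.9 FPKM with a gap of 0.869, in the library with 1287 FPKM of summed fibroblast markers, whose part was not tested.

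S100a4 was picked out because its change from cXENp1 to cXENp3 differed between knockout and Zfp281-present lines, by 3.04 on the log2(FPKM + 1) scale (limma adjusted p 0.016), with both knockout lines above both others.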

How the results depend on the processing

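Of 93 counts of called genes under alternatives, 76 stayed within 1.5 times the main count and in the same state, and of 541 single-gene values 467 kept their direction and side of the threshold. Of 52 gene results, 28 were called, and 0 of these changed sign under any alternative run. Leaving out each line in turn gave 5 to 10 called genes in XEN against ESC, 2 to 3 at cXENp1 and 0 to 8 at cXENp3 against ESC, 1 to 5 from cXENp1 to cXENp3, 0 to 2 for knockout against Zfp281-present lines in ESCs and at cXENp1, 1 to 7 at cXENp3, 0 to 2 for the interaction and 0 for knockout cXENp3 against XEN. A line left out can leave an arm with 1 library, which is then assumed to vary like the other groups. With the prefix as a term 1 gene was called at cXENp1 and 0 at cXENp3 against ESC. In these fits KO2.6 is the only ESC library with the prefix XH, so the ESC level rests on that library alone. With a pseudocount of 0.1 the interaction called 0. Without the replicate block (line), 5 genes were called at cXENp3 against ESC in place of 7, and the counts of 2 at cXENp1 against ESC and 3 from cXENp1 to cXENp3 did not move. With that block, added after seeing the data, the interaction called 1 gene, as without it.

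Results not called in the main analysis turned in sign as follows. With the prefix as a term S100a10 stood at -0.17 in XEN against ESC, and S100a1 at 1.44 at cXENp1 against ESC. In knockout ESCs S100a10 stood at -0.22 with that term, as it did without KO2.6. After quantile normalization S100a4 stood at -0.21 at cXENp1 against ESC. Leaving out lines gave -0.56 to 0.90 for Anxa2 at cXENp1 and -0.88 to 0.98 for S100a1 at cXENp3 against ESC, -1.03 to 0.091 for Anxa3 from cXENp1 to cXENp3, -0.22 to 1.81 for S100a10 in knockout ESCs, and for Anxa1 -0.89 to 3.17 at cXENp3 in knockout lines and -3.08 to 1.77 in the interaction. The cause was not tested. Quantile normalization moved the median of all genes by -0.11 in knockout lines at cXENp3, where 5 of the 10 genes were then called and the share of all calls that were higher went from 54.6% to 45.5%. It moved the share of calls that were higher from 75% to 64% in knockout lines at cXENp1 and from 64.1% to 49.9% in knockout cXENp3 against XEN, both comparisons with 0 genes called. Depth is unknown, so counting error at low values could not be given.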
